A study of Homo sapiens with 27 samples.

Results

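The nuclear-encoded subunits of the mitochondrial respiratory chain were taken from the table by symbol: rows beginning with NDUFA, NDUFB, NDUFC, NDUFS or NDUFV and a digit, with UQCR, with COX4 to COX8 or with ATP5, together with SDHA, SDHB, SDHC and SDHD, with a normalised read count of at least 10 in at least 3 of the 27 libraries. Of 23228 rows, 90 carried such a symbol and 80 met the minimum. Complex I held 36 of them, complex II 4, complex III 8, complex IV 13 and complex V 15. The symbols also took in COX4NB, COX7A2L, ATP5S and ATP5SL, 4 genes whose products are not counted as subunits here. The 10 rows under the minimum were COX4I2, COX6A2, COX7A1, COX7B2, COX8C, ATP5L2, ATP5EP2, ATP5J2-PTCD1, NDUFC2-KCTD14 and UQCRHL, and their highest value in any library was 6.21 (UQCRHL).

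The libraries came from DU145-DR, 22Rv1-DR and ARCaPM-DR, human castration-resistant prostate cancer cell lines that the labels class as Ch-CRPC and whose names carry the suffix DR. Each line expressed a random control hairpin (Control) or 1 of 2 hairpins that target GATA2, a transcription factor (shGATA2a and shGATA2b), with 3 replicates in each of the 9 groups. The knockdown effect is the mean of both hairpin groups against the control of the same line. Whether replicates came from separate cultures is not in the labels. The p-values therefore speak of the spread among these libraries, possibly a technical one, and each line is a single line of its kind.

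The respiratory chain sits in the inner mitochondrial membrane. Complex I takes electrons from NADH and complex II takes them from succinate, both pass them to ubiquinone, complex III hands them to cytochrome c and complex IV to oxygen. Complexes I, III and IV pump protons, and complex V, the ATP synthase, uses the gradient to make ATP. Most subunits are encoded in the nucleus and the rest in mitochondrial DNA, and the promoters of nuclear subunits are known for sites of NRF1, of the ETS family factor GABPA and of YY1. GATA2 binds DNA at the letters GATA.

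Recovered reads per library ran from 3.44 M to 19.4 M, with a median of 12.87 M (mega-reads). GATA2, the target of the hairpins, was lower in all 6 knockdown libraries than in all 3 controls of each line: 225 to 385 against 925 to 1255 (DU145-DR), 806 to 1738 against 3052 to 4307 in 22Rv1-DR and 17.3 to 46.6 against 145 to 173 in ARCaPM-DR. In DU145-DR 5 and in 22Rv1-DR 7 of the 9 GATA2 values were no whole multiple of the value of a read, so GATA2 checks the labels fully only in ARCaPM-DR. Of the respiratory chain genes, 0 had such a value. VIM, the mesenchymal filament vimentin, was at 53.3 to 146 in 22Rv1-DR controls and between 12568 and 55226 in those of the others. Of the other mesenchymal markers listed, ZEB1 went the same way, at 1.72 to 9.92 against 841 to 1762. FN1 went the other way, at 3755 to 5215 in 22Rv1-DR controls, 126 to 247 in DU145-DR and 621 to 1513 in ARCaPM-DR. CDH2 did too, at 66.0 to 82.3 against 2.14 or less.

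The library labelled 22Rv1-DR Control replicate 3 stood apart in these genes. They held 0.588% of its reads, against 1.05% and 1.08% in the other 22Rv1-DR controls. The replicate 3 knockdown libraries of the line were low too, at 0.835% (shGATA2a) and 0.828% (shGATA2b), against 1.04% to 1.08% in the other 4. Each lay below the mean of its group's other libraries in most of the 79 genes tested, 74 with a median log2 difference of -0.30 (shGATA2a) and 75 with -0.29 (shGATA2b). Over all 13757 genes tested, 6898 (shGATA2a) and 6762 (shGATA2b) lay below, with medians of -0.0014 and 0.0089. For Control replicate 3, against the mean of the other 2 controls on the log2 scale, the median difference over the 79 genes tested was -1.21, while over all 13757 genes tested it was 0.06. By complex the medians were -1.13 in I, -1.05 in II, -0.59 in III, -1.81 in IV and -1.50 in V. In all, 43 of the 79 were at least 2-fold lower, compared with 8.1% of all genes. The library lay below every other library of the line in 69.6% of these genes and in 26.5% of all genes tested. The lowest was UQCR10, an accessory subunit of complex III, at 50.5 against 414 and 345. ATP5J2 (236 against 1487 and 1365), a membrane subunit of complex V, NDUFB4 (196 against 1109 and 1222), an accessory subunit of complex I, and NDUFA4 (602 against 3668 and 3409), a subunit of complex IV, came next. A few genes did not share this: ATP5D, a small subunit of the F1 head, was at 1495 against 672 and 1325, and NDUFV1, the flavoprotein that binds NADH, at 1980 against 1215 and 1497.

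Other genes in the shortest bin of transcript length differed less in this library, though lengths were not matched within the bin. With genes in 5 bins of transcript length, the 63 respiratory chain genes of the shortest bin had a median difference of -1.30 and the other genes in it one of -0.24. With transcript length taken as the median over protein-coding transcripts, these were -1.24 (59 genes) and -0.066. Over 5 bins of GC content, medians of the other genes ran from -0.07 to 0.34. Outside 22Rv1-DR, the control library farthest from its group was DU145-DR Control replicate 3, with a median of -0.49 in complex I and -0.31 over the 80 genes. The replicate 3 knockdown libraries of DU145-DR were low too. Of the 80 genes, 68 (shGATA2a) and 67 (shGATA2b) lay below the mean of the group's other libraries, with medians of -0.23 and -0.14. Over all 13362 genes tested, 6045 and 6459 lay below, with medians of 0.031 and 0.0098. The part of transcript length in the low values of the library labelled 22Rv1-DR Control replicate 3 was not tested. Group means ± SD of 22Rv1-DR include it, and the differences and counts that it moved most are given without it as well.

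**Figure D1:**
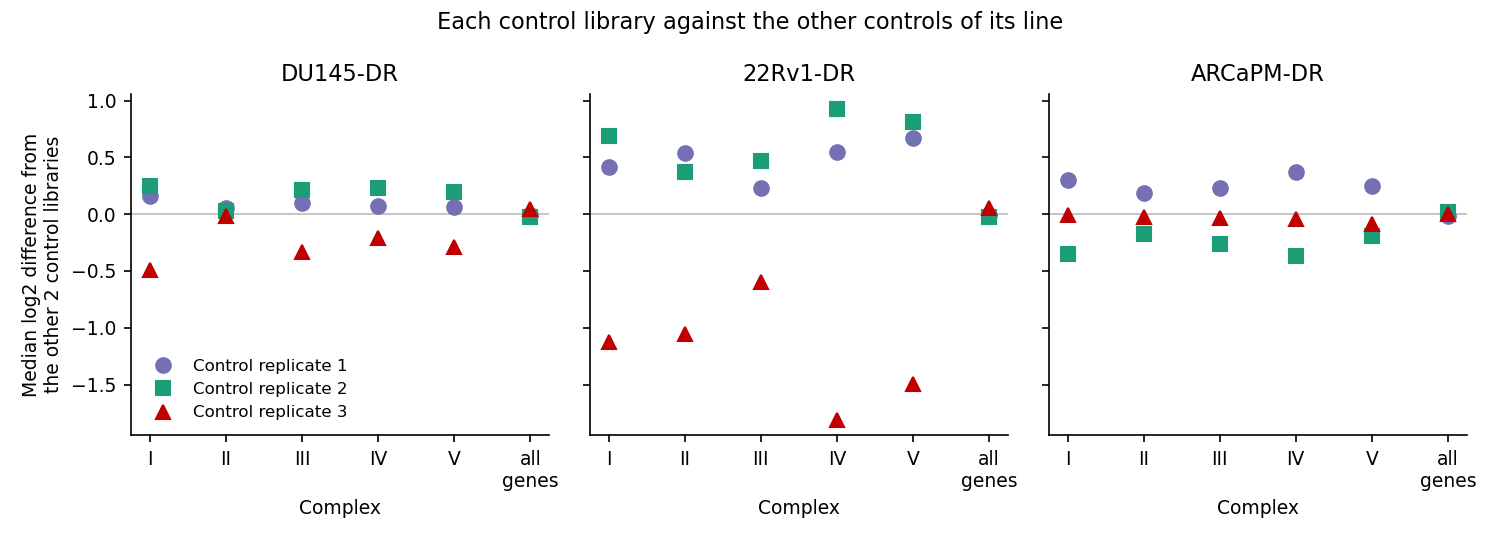
Median log2 difference of each control library from the other 2 control libraries of its line, by respiratory chain complex and over all genes tested; each point is 1 library. The library labelled 22Rv1-DR Control replicate 3 lies between -0.59 and -1.81 in the complexes and near 0 over all genes.

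**Figure D2:**
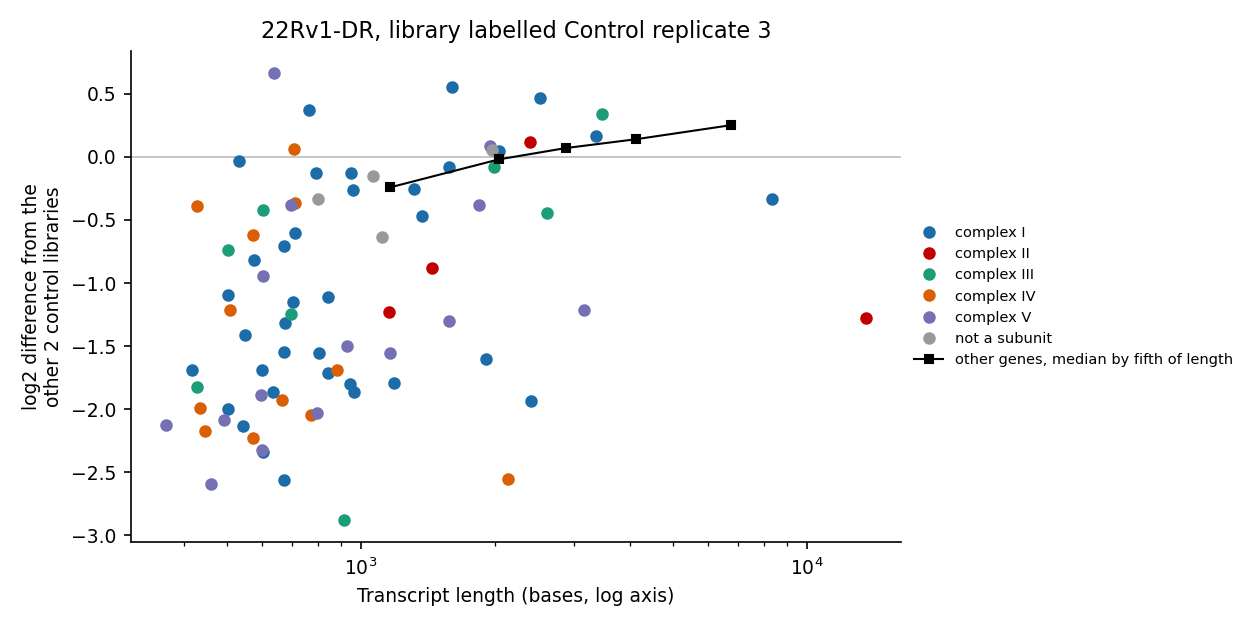
Log2 difference of the library labelled 22Rv1-DR Control replicate 3 from the other 2 control libraries, against transcript length on a log axis; points are single genes coloured by complex and the black line is the median of all other genes by length bin. Of 79 genes 68 lie below 0, with UQCR10 lowest at -2.88, and of all 13757 genes tested 6401 do.

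Levels in control libraries differed between the lines in single subunits, with members of 1 complex going in opposite directions. Per kilobase of transcript, complex V had the highest median in control libraries of DU145-DR (1448) and of ARCaPM-DR (1448). In 22Rv1-DR the medians of complexes V and IV were 1501 and 1478 with all controls, and the order turned without Control replicate 3 (1567 and 2004). Complex I stood lower, at 622 in DU145-DR controls, 652 in those of ARCaPM-DR and 803 in those of 22Rv1-DR (855 without Control replicate 3). ATP5B, the catalytic beta subunit of the ATP synthase, was the highest of the genes in 22Rv1-DR (8846 ± 1360 per kilobase, SD, n = 3) and in ARCaPM-DR (4867 ± 405). In DU145-DR it reached 3352 ± 129, within the spread of UQCRB (3953 ± 606), a complex III subunit, which stood first. The genes together took 0.752% ± 0.084 of reads in controls of DU145-DR, 0.906% ± 0.276 in 22Rv1-DR controls, the low library included, and 0.664% ± 0.070 in ARCaPM-DR controls (SD, n = 3).

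Complex II was split. SDHA, its flavoprotein, which oxidises succinate, was at 7032, 8876 and 6794 in ARCaPM-DR controls, at 3034, 2991 and 2433 in DU145-DR and at 2733, 2622 and 2897 in 22Rv1-DR. The ARCaPM-DR libraries lay above all the others, with a log2 difference of 1.42 (SE 0.15, limma adjusted p = 1.21e-05) against DU145-DR and 1.45 (SE 0.17, adjusted p = 9.82e-05) against 22Rv1-DR. SDHD, a membrane anchor of the same complex, went the other way, at 525, 421 and 513 in ARCaPM-DR and 1220, 1154 and 1260 in DU145-DR (log2 difference -1.32, SE 0.12, limma adjusted p = 6.20e-06). SDHC, the other anchor, was also lower there (-0.81, SE 0.11, adjusted p = 9.67e-05), and SDHB, the iron-sulphur subunit, differed by -0.18 (SE 0.11, adjusted p = 0.196). SDHA has near-identical pseudogenes, and the sources used here do not say how reads shared with them were counted, so its level is uncertain to that extent. Rows for SDHAP1, SDHAP2 and SDHAP3 held at most 380 in any library.

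Complex I and III differed gene by gene. NDUFC1, an accessory subunit of the membrane arm, was at 164 ± 10.6 in ARCaPM-DR and 437 ± 55.4 in DU145-DR (log2 difference -1.40, SE 0.15, adjusted p = 1.67e-05). NDUFA8, another accessory subunit of that arm, was at 1484 ± 335 in DU145-DR controls, 1082 ± 197 in ARCaPM-DR and 539 ± 285 in 22Rv1-DR. Its log2 difference of 22Rv1-DR from DU145-DR was -1.63 (adjusted p = 0.0104), and -1.05 without Control replicate 3 (adjusted p = 6.66e-04). UQCRC2, the core protein 2 of complex III, stood at 1949 ± 52.9 in ARCaPM-DR, 1911 ± 326 in 22Rv1-DR and 1386 ± 40.9 in DU145-DR. The difference between ARCaPM-DR and 22Rv1-DR did not pass (adjusted p = 0.842), while that between ARCaPM-DR and DU145-DR did (log2 difference 0.49, SE 0.10, adjusted p = 0.00151).

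Alternative isoforms held the largest folds. NDUFA4L2, the paralogue of the complex IV subunit NDUFA4 that is known to be induced in hypoxia, was at 3296, 6766 and 1461 in the 22Rv1-DR controls and at 6.40 to 11.2 in the controls of the other lines. The log2 difference from DU145-DR was 8.29 (SE 0.49, adjusted p = 1.33e-06), and without Control replicate 3 it was 8.85. Per kilobase of transcript, NDUFA4L2 reached 4350 ± 3052 in 22Rv1-DR controls and NDUFA4 1202 ± 798 (SD, n = 3), so the spread of both was wide, and NDUFA4 itself stood at 3668, 3409 and 602 in these libraries. In the knockdown of 22Rv1-DR the log2 fold change was 0.56 for NDUFA4L2 (SE 0.37, adjusted p = 0.590) and 0.65 for NDUFA4 (SE 0.46, adjusted p = 0.615), neither past the threshold. Without Control replicate 3 the values were -0.0068 (SE 0.26, adjusted p = 0.997) and -0.20 (SE 0.17, adjusted p = 0.784). COX6B2, the testis isoform of the complex IV subunit COX6B, was low everywhere, but at 42.3, 72.7 and 42.2 in ARCaPM-DR controls it lay above the 7.83 to 13.8 of DU145-DR (log2 difference 2.16, SE 0.31, adjusted p = 1.40e-04) and the 2.98 to 5.71 of 22Rv1-DR. Per kilobase, COX6B2 reached 109 ± 36.7 in ARCaPM-DR and the common isoform COX6B1 1386 ± 191 (SD, n = 3). The isoforms COX4I2, COX6A2, COX7A1, COX7B2 and COX8C, several of them known from muscle, lung or testis, were below the minimum in all lines, with at most 5.76 in any library. Their common counterparts COX4I1, COX6A1, COX7A2 and COX8A were all above the minimum. ATP5G1, ATP5G2 and ATP5G3 encode the same mature ring protein of the ATP synthase. ATP5G1 was at 841 ± 167 in DU145-DR controls, 670 ± 220 in ARCaPM-DR and 326 ± 207 in 22Rv1-DR. ATP5G3 was at 1380 ± 99.9 in DU145-DR, 1358 ± 227 in ARCaPM-DR and 649 ± 385 in 22Rv1-DR. ATP5G2 went the other way, at 1394 ± 257 in DU145-DR controls, 1407 ± 71.6 in those of ARCaPM-DR and 2286 ± 1334 in those of 22Rv1-DR. The log2 differences of 22Rv1-DR from DU145-DR were -1.68 for ATP5G1 (adjusted p = 0.0276), -1.35 for ATP5G3 (adjusted p = 0.0372) and 0.49 for ATP5G2 (adjusted p = 0.381). Without Control replicate 3 they were -0.90 (adjusted p = 9.51e-04), -0.67 (adjusted p = 0.00102) and 1.12 (adjusted p = 3.26e-04), so ATP5G2 passed without that library and not with it.

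A few other subunits differed widely. COX7C, a small complex IV subunit, was at 1191 ± 235 in DU145-DR controls and 2763 ± 568 in ARCaPM-DR (log2 difference 1.21, SE 0.19, limma adjusted p = 2.39e-04). COX6C, of the same complex, was at 1262 ± 122 in DU145-DR controls, at 413 ± 134 in those of ARCaPM-DR and at 873 ± 136 in those of 22Rv1-DR, and the log2 difference of ARCaPM-DR from DU145-DR was -1.65 (SE 0.21, adjusted p = 5.22e-05). NDUFA5, an accessory subunit of the arm that reduces ubiquinone, was at 3739, 3288 and 1156 in 22Rv1-DR and at 731, 745 and 866 in DU145-DR (log2 difference 1.64, SE 0.40, adjusted p = 0.00591, and 2.17 without Control replicate 3). All 3 of its 22Rv1-DR libraries lay above those of DU145-DR, even the third. ATP5D was at 1164 ± 435 in 22Rv1-DR and 287 ± 101 in DU145-DR (log2 difference 2.001, SE 0.36, adjusted p = 0.00119, and 1.78 without Control replicate 3), and NDUFS6, a zinc-binding complex I subunit, at 321 ± 159 and 822 ± 208 (log2 difference -1.46, SE 0.40, adjusted p = 0.0105, and -0.99 without Control replicate 3).

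Counted over all of the genes, 22 were higher and 12 lower in 22Rv1-DR than in DU145-DR controls, of 79 tested, where 66.3% of all genes passed (34.7% higher and 31.6% lower). The counts were 40 and 15 without 22Rv1-DR Control replicate 3 (71.6% of all genes, 33.2% higher and 38.4% lower), and 21 and 22 in all without DU145-DR Control replicate 1 or 2 (55.4% of all genes in each). Between ARCaPM-DR and DU145-DR, 16 were higher and 26 lower of 79 (67.4% of all genes, 32.9% higher and 34.6% lower). Between ARCaPM-DR and 22Rv1-DR, 6 were higher and 16 lower of 80 (63.2%, 28.9% higher and 34.3% lower), and 6 and 41 of 79 without 22Rv1-DR Control replicate 3 (66.1%, 35.2% higher and 30.9% lower). In that last pair, leaving out ARCaPM-DR Control replicate 2 or 3 gave 11 in all (55.7% and 53.2% of all genes), and leaving out 22Rv1-DR Control replicate 2 gave 13 (52.6%). In complex IV the median log2 difference of 22Rv1-DR from DU145-DR was 0.26, and 0.86 without the library, and in complex I it was -0.02 and 0.36.

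**Figure D3:**
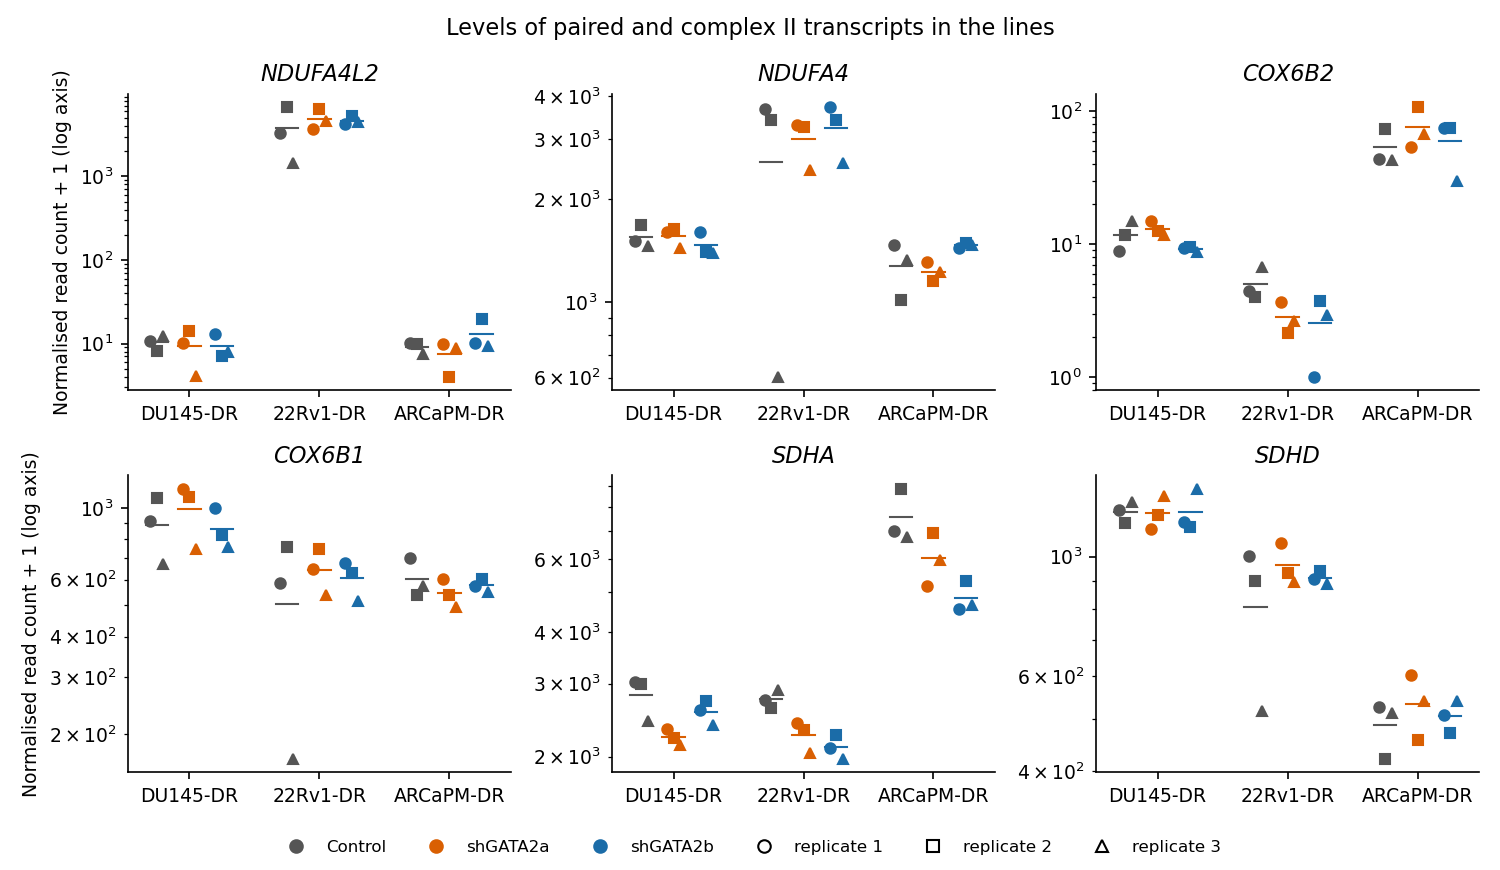
Normalised read count plus 1 on a log axis for isoform pairs and complex II genes, by line; each point is 1 library, shape gives the replicate, colour the hairpin, and the bar is the mean of 3 libraries. NDUFA4L2 is at 1461 or more in all 22Rv1-DR libraries and at 18.8 or less in the others, COX6B2 is highest in ARCaPM-DR, and SDHA and SDHD differ in opposite directions between ARCaPM-DR and DU145-DR.

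In ARCaPM-DR the knockdown moved single subunits while the median over the genes stayed near 0. Of 79 genes tested, 4 rose and 4 fell, 10.1% in all, where 18.5% of all 13079 genes passed (9.86% up and 8.62% down). The median log2 fold change was 0.0055, and -0.0038 over all genes. The genes that fell were UQCRC2 and UQCRFS1 in complex III, NDUFB5 in complex I and SDHA in complex II. UQCR10 in complex III, COX6C in complex IV, NDUFB3 in complex I and ATP5L in complex V rose. By complex the medians were 0.0041 in I, -0.015 in II, -0.25 in III, 0.13 in IV and 0.041 in V, with 6 of the 8 complex III genes below 0. The fibroblast marker list (COL1A1, COL1A2, COL3A1, DCN, LUM and PDGFRB) moved with the knockdown in this line, from a summed level of 2368 to 4777 in controls to 5691 to 14933 in the knockdown libraries. COL3A1 and COL1A1 made up nearly all of it, PDGFRB was at 0 in all 9 libraries, and DCN and LUM were at 4.98 or less. Its part in the results was not tested.

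UQCRC2 changed most. It was at 2003, 1946 and 1897 in the controls, at 458, 582 and 692 with shGATA2a and at 448, 633 and 555 with shGATA2b. All 6 knockdown libraries lay far below the 3 controls, and the hairpins gave 577 ± 117 and 545 ± 92.8 (SD, n = 3). The log2 fold change was -1.81 (SE 0.15, limma adjusted p = 8.05e-05), and the fall passed under each of the 20 alternatives (highest adjusted p 0.00156). UQCRC2 forms part of the matrix-side core of complex III. Its partner UQCRC1 was at 2008 ± 229 in controls and 1698 ± 395 in the knockdown libraries (n = 3 and 6), with a log2 fold change of -0.27 (SE 0.19, adjusted p = 0.367). UQCRFS1, the Rieske iron-sulphur protein of the same complex, was at 568, 546 and 481 in controls and between 350 and 458 in the knockdown libraries, without overlap. Its log2 fold change was -0.42 (SE 0.12, adjusted p = 0.0410), past the threshold in 11 of 20 alternatives.

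The 250 bases before the annotated start of UQCRC2, UQCR10 and NDUFB3 are shown here because UQCRC2 changed most and the others are the called genes whose windows held GATA letters. They were chosen after the values and matches were seen. They are from RefSeq on GRCh38.p14, a later build than the hg19 of the read mapping, and run 5′ to 3′ on the strand of the gene. Capitals mark a match on either strand to a GATA word, that is AGATAA or, ending in G, AGATAG and, starting with T in place of A, TGATAA or with both changes TGATAG.
UQCRC2 (chr16:21953111-21953360, plus strand): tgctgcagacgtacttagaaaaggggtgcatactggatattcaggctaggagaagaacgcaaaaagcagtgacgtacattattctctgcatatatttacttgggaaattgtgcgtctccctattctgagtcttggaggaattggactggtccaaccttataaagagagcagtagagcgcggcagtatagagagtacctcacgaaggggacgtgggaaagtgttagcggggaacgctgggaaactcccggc
UQCR10 (chr22:29767119-29767368, plus strand): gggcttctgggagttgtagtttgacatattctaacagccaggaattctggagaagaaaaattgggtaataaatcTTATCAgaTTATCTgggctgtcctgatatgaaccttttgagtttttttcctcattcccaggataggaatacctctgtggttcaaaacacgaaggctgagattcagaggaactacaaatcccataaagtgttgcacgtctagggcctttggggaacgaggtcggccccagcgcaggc
NDUFB3 (chr2:201071751-201072000, plus strand): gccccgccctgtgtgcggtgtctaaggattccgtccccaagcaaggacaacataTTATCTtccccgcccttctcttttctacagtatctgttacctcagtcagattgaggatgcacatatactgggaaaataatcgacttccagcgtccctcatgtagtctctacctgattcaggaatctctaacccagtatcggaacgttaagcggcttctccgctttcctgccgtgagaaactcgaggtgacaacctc
UQCRC2 had 0 such matches in these bases, UQCR10 had 2 and NDUFB3 had 1. The windows of UQCRFS1, SDHA and ATP5L had 0 matches. A match is a run of letters only.

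Among the other genes that fell, the groups overlapped in part. NDUFB5, an accessory subunit of the proton-pumping arm of complex I, was at 1044, 776 and 1355 in controls, at 700, 526 and 913 with shGATA2a and at 374, 429 and 514 with shGATA2b. The shGATA2b libraries lay below all controls and the shGATA2a libraries overlapped them. The log2 fold change was -0.91 (SE 0.21, adjusted p = 0.0162), and 18 of 20 alternatives passed. The difference between the hairpins was -0.67 (SE 0.24) and did not pass (adjusted p = 0.299). SDHA was at 7032, 8876 and 6794 in controls, at 5165, 6944 and 5985 with shGATA2a and at 4557, 5312 and 4635 with shGATA2b. Its fold change on the log2 scale was -0.48 (SE 0.13, adjusted p = 0.0284), past the threshold in 15 of 20 alternatives. SDHB, SDHC and SDHD had fold changes of 0.07, -0.10 and 0.09 on the log2 scale, none past the threshold.

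Among the genes that rose, UQCR10 was at 227, 147 and 181 in controls and between 258 and 348 in the knockdown libraries, without overlap (log2 fold change 0.66, SE 0.17, adjusted p = 0.0235). COX6C, an accessory subunit of complex IV, was at 558, 293 and 389 in controls, at 790, 534 and 878 with shGATA2a and at 695, 619 and 871 with shGATA2b. The highest control overlapped the lowest knockdown library, and the log2 fold change was 0.85 (SE 0.22, adjusted p = 0.0271). Both passed in 15 of 20 alternatives. NDUFB3, an accessory subunit of complex I, was at 469, 399 and 432 in controls and 490 to 649 in the knockdown libraries (log2 fold change 0.44, SE 0.12, adjusted p = 0.0291). ATP5L, subunit g of the ATP synthase, was at 1314, 1197 and 1237 in controls and 1465 to 1637 in the knockdown libraries (log2 fold change 0.30, SE 0.09, adjusted p = 0.0408). Neither overlapped its controls, and they passed in 13 and 10 of 20 alternatives.

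Several central subunits differed by less than the spread between replicates in ARCaPM-DR. ATP5B was at 8950 ± 746 in controls and 9223 ± 719 in knockdown libraries, ATP5A1, the alpha subunit, at 2954 ± 333 and 3182 ± 308, and COX4I1, the main form of a complex IV subunit, at 2828 ± 396 and 2645 ± 141. NDUFS1, the largest iron-sulphur subunit of complex I, did not overlap between the groups, at 1891 to 2315 in controls and 2420 to 2522 in knockdown libraries, and did not pass (log2 fold change 0.20, SE 0.09, adjusted p = 0.175). In this line 5 genes lay above and 3 below all controls in all 6 knockdown libraries, where 11% and 10% of all genes did. The number called depended on single libraries. It was 2 without Control replicate 3, shGATA2a replicate 1 or shGATA2b replicate 1, 3 without Control replicate 1, Control replicate 2 or shGATA2b replicate 3, and 7 to 10 without each of the remaining 3. The share of all genes called moved too, to between 9.04% and 14.1% in the first 6 of these fits and between 16.8% and 27.2% in the others.

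**Figure D4:**
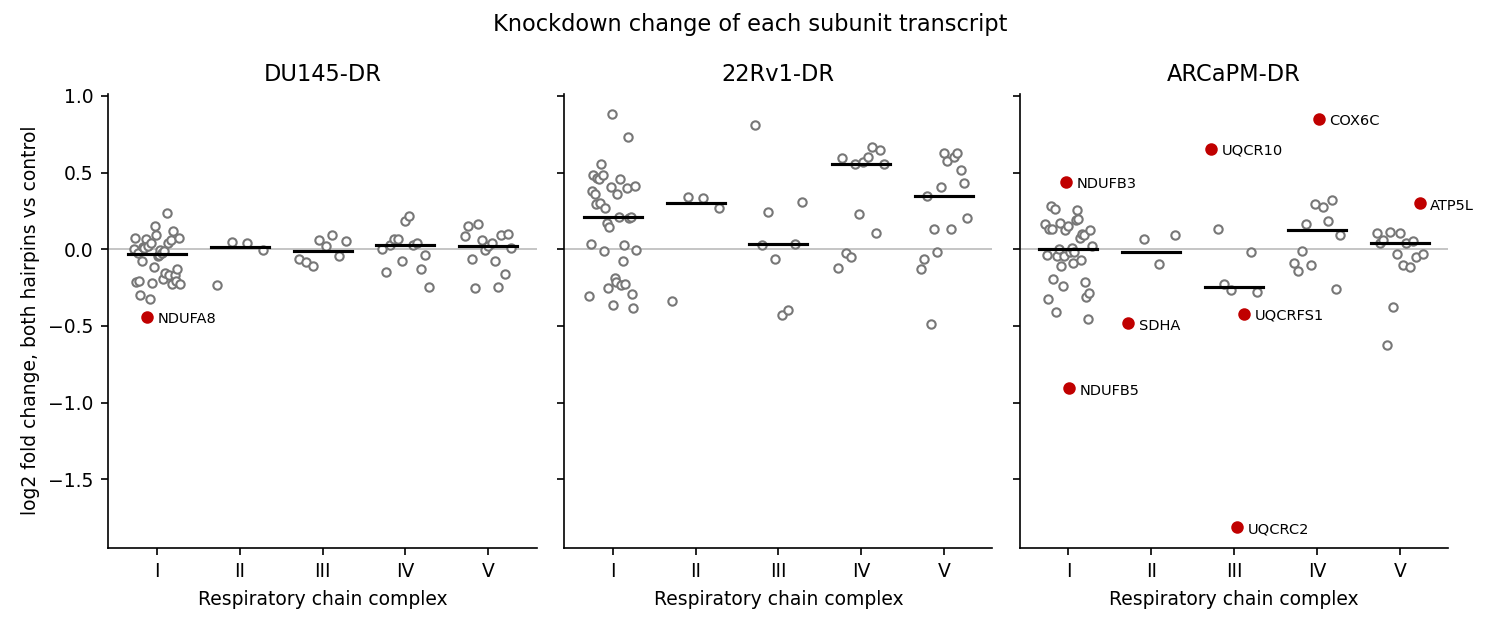
Log2 fold change of each gene, both hairpins against control, by complex and line; each point is 1 gene, red points passed the threshold of 0.05 and bars are medians. UQCRC2 in ARCaPM-DR lies at -1.81, below all other points, and the 22Rv1-DR medians rest on the controls with the library labelled Control replicate 3 included.

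**Figure D5:**
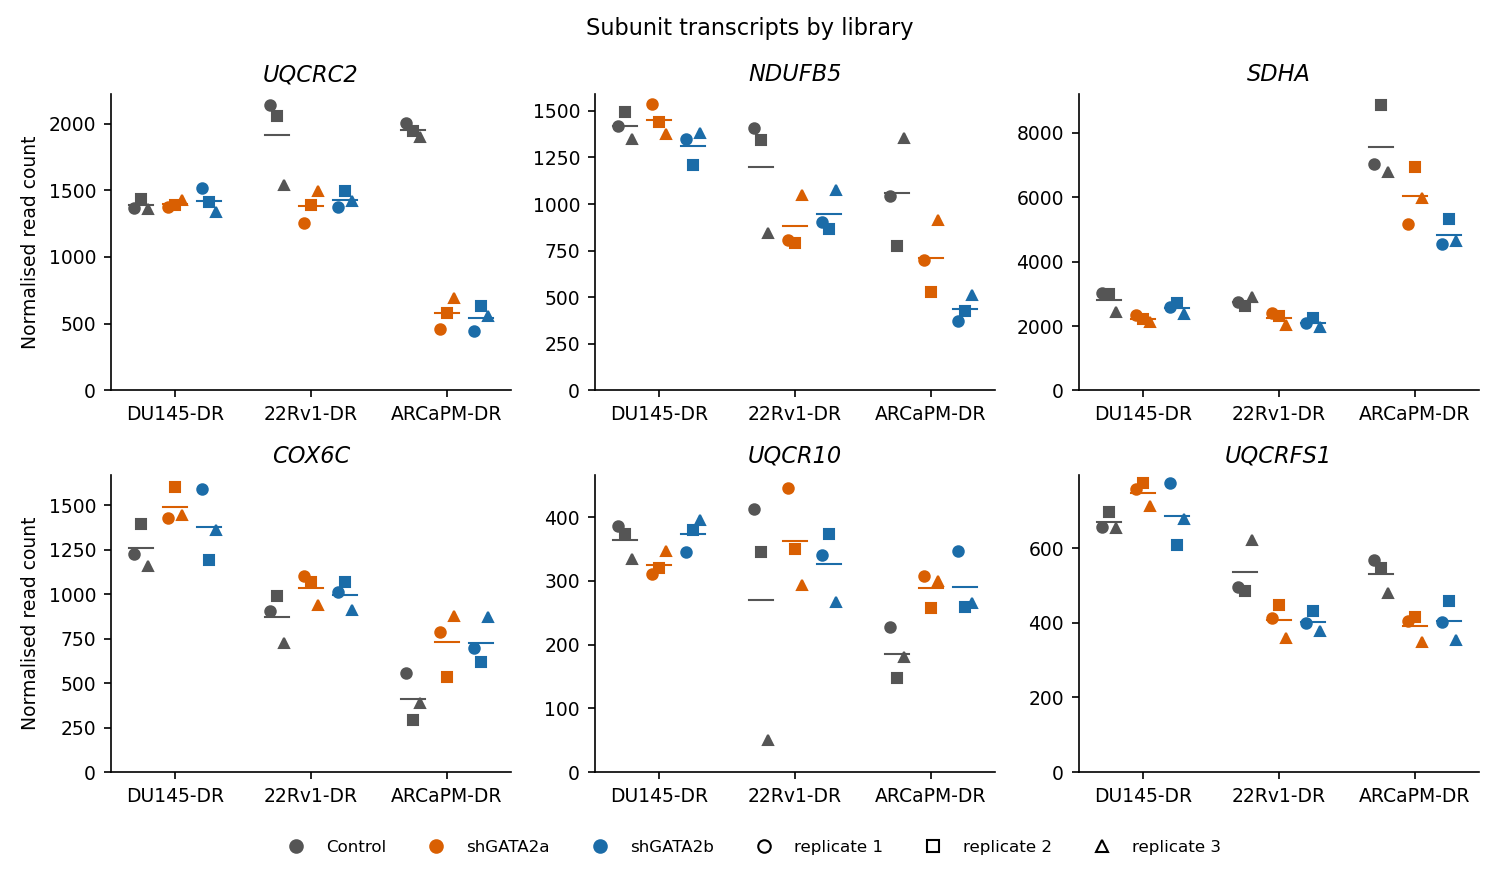
Normalised read count of 6 subunit genes in all 27 libraries; shape gives the replicate, colour the hairpin, and the bar is the mean of 3 libraries. UQCRC2 falls from 1897 to 2003 in ARCaPM-DR controls to 448 to 692 with either hairpin, and the DU145-DR libraries lie between 1337 and 1517.

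In DU145-DR 1 respiratory chain gene passed in the fit without a replicate block, and 13 with it (38.8% of all genes). Without the block, 0 of 80 rose and 1 fell, where 16.7% of all genes passed (8.72% up and 7.98% down). The median log2 fold change was -0.0033, against -0.0020 over all genes. NDUFA8 was at 1641, 1712 and 1099 in controls, at 1219, 1156 and 984 with shGATA2a and at 1160, 1069 and 879 with shGATA2b. The fold change on the log2 scale was -0.44 (SE 0.14, limma adjusted p = 0.0489). The lowest control lay inside the range of the knockdown libraries, and the call held in 9 of 20 alternatives, with adjusted p from 3.67e-05 to 0.368. It was lost without any 1 of 7 libraries, and 5 genes passed without Control replicate 3 (18.3% of all genes). UQCRC2 was at 1370, 1433 and 1356 in controls and 1337 to 1517 in the knockdown libraries. NDUFS1 lay above all controls in all 6 knockdown libraries, at 1766 to 1938 against 1487 to 1688, with a log2 fold change of 0.24 (SE 0.08, adjusted p = 0.0501). ATP5B did so too, at 6531 to 7318 against 5939 to 6412, and NDUFV3, a small subunit of the NADH-binding part, was the 1 gene below all controls. Those counts of 2 and 1 compare with 10% and 8.74% of all genes. The endothelial list (PECAM1, VWF, CDH5, KDR and ROBO4) summed to 10.4 to 13.5 in DU145-DR controls and 22.9 to 52.1 in the knockdown libraries. KDR (4.32 to 7.13, then 9.30 to 34.7) and ROBO4 (3.26 to 5.19, then 9.49 to 18.7) made up most of it. PECAM1 was at or below 0.863, CDH5 0.771 and VWF 2.79. In ARCaPM-DR the list went the other way, with overlap, from 44.9 to 154 in controls to 5.18 to 62.7, nearly all of it ROBO4. The part of these markers in the results was not tested.

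Same-numbered DU145-DR libraries deviated together, and with the replicate number as a block 2 genes rose and 11 fell, 16.2% of the 80, where 38.8% of all genes passed (19.6% up and 19.2% down). NDUFS1 (adjusted p = 0.00452) and COX7A2, a complex IV subunit (0.0254), were the ones that rose. Those that fell were SDHA, ATP5D and 9 complex I genes: NDUFA8, NDUFB1, NDUFA2, NDUFB9, NDUFV3, NDUFB11, NDUFS5, NDUFS8 and NDUFA11. Their log2 fold changes ran from -0.44 (NDUFA8) to -0.19 (NDUFB9). The median over the 36 complex I genes was -0.03.

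In 22Rv1-DR 0 of 79 passed with limma and 0 with edgeR, where 0.4% (limma) and 0.414% (edgeR) of all genes passed. At an unadjusted p under 0.05 there were 3 of the 79, and 1379 of all 13757 genes tested. The median log2 fold change of the 79 was 0.23, with 56 genes above 0, and complex IV had the highest median at 0.56. Over all 13757 genes tested it was -0.016, with 6544 above 0. Without the library labelled Control replicate 3 the median of the 79 was -0.15, 69 genes were below 0, and again 0 passed with limma (0.27% of all genes). Over all 13707 genes tested without that library it was -0.010, with 7127 below 0. In that fit 5 of the 79 and 1230 of all 13707 genes tested had an unadjusted p under 0.05. In complex IV the median went from 0.56 to -0.12, in complex V from 0.35 to -0.17, in complex I from 0.21 to -0.17, in complex II from 0.30 to -0.08 and in complex III from 0.03 to -0.19. The direction of all 5 medians turned with this 1 library. With the replicate number as a block as well, where the comparison with controls rests on replicates 1 and 2, the median of the 79 was -0.038, with 51 genes below 0 and 28 above. The medians by complex lay between -0.13 (III) and -0.013 (IV). Over all 13707 genes tested the median was -0.0067, with 7045 below 0 and 6662 above.

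UQCRC2, SDHA and UQCRFS1 were the 3 genes whose knockdown libraries all lay below all 3 controls in 22Rv1-DR, where 4.04% of all genes did so. The count above all controls was 0, against 2.9% of all genes. UQCRC2 was at 2141, 2054 and 1537 in controls, at 1254, 1390 and 1492 with shGATA2a and at 1376, 1494 and 1421 with shGATA2b. The fold change on the log2 scale was -0.43 (SE 0.14, adjusted p = 0.371). Without Control replicate 3 it was -0.58 (SE 0.12, adjusted p = 0.0891). NDUFB5 was at 1410, 1346 and 844 in controls and 793 to 1078 in knockdown libraries, and the third control alone made the groups overlap. With the replicate number as a block and without Control replicate 3, a setting added after the data were seen, 4 genes fell and 0 rose, where 10.7% of all genes passed (4.68% up and 6.02% down). They were NDUFB5 (log2 fold change -0.71, adjusted p = 4.08e-05), UQCRC2 (-0.61, adjusted p = 2.53e-04), ATP5F1, a stalk subunit of the ATP synthase (-0.37, adjusted p = 0.00486), and SDHA (-0.24, adjusted p = 0.0430). With the block and all libraries, 0 passed, where 1.21% of all genes did. In that fit 4 of the 79 and 2748 of all 13757 genes tested had an unadjusted p under 0.05.

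Whether the knockdown effect differed between the lines was tested in a fit of all 27 libraries. UQCRC2 was the only gene of the 80 that passed without a replicate block (adjusted p = 1.25e-06 by the limma F test), where 7% of all genes did. With the replicate number within each line as a block, COX6C (adjusted p = 0.00933), UQCRFS1 (0.0133), NDUFB5 (0.0139), NDUFA8 (0.0362) and NDUFS1 (0.0424) passed as well, 6 in all, where 26.2% of all genes did. The numbers were not shown to pair the ARCaPM-DR libraries, which that fit blocks too. Its effect in ARCaPM-DR differed by -1.83 on the log2 scale from that in DU145-DR (SE 0.17, adjusted p = 4.12e-07, 7.13% of all genes past the threshold) and by -1.38 from that in 22Rv1-DR (SE 0.17, adjusted p = 6.78e-05, 3.39%). Without the block UQCRFS1 (adjusted p = 0.0689) and NDUFB5 (0.0772) followed and did not pass. The count was 3 without 22Rv1-DR Control replicate 3 (8.98% of all genes), where NDUFB5 (adjusted p = 0.0356) and UQCR10 (0.0301, and 0.495 with all libraries) passed beside UQCRC2. With the block and without that library it was 13 (34.6% of all genes). Without the block it was 2 without 22Rv1-DR Control replicate 2, ARCaPM-DR Control replicate 1 or 2, or ARCaPM-DR shGATA2a replicate 2 or 3 (4.72% to 9.87% of all genes). Between pairs of lines, NDUFB5 fell by 0.86 more on the log2 scale in ARCaPM-DR than in DU145-DR (SE 0.25, adjusted p = 0.0361), and UQCRFS1 differed by -0.52 (SE 0.16, adjusted p = 0.0551, and 0.0268 without 22Rv1-DR Control replicate 3). For SDHA, NDUFB3 and ATP5L, also called in ARCaPM-DR, a difference between the lines passed neither with all libraries, with or without the block, nor without 22Rv1-DR Control replicate 3 in the fit without a block. Between the hairpins, 0 respiratory chain genes passed in each line in the fit without a block, where 0% of all genes in DU145-DR and in 22Rv1-DR and 0.803% in ARCaPM-DR passed. At an unadjusted p under 0.05 the counts were 0, 0 and 2, and edgeR called 0 in each line.

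Genes around the chain also moved one by one. Outside the symbols, CYC1, the cytochrome c1 of complex III, fell in DU145-DR from 2676 ± 369 to 1761 ± 226 (log2 fold change -0.60, SE 0.12, adjusted p = 0.00597). The ARCaPM-DR values went from 2452 ± 416 to 1765 ± 262 (log2 fold change -0.47, SE 0.16, adjusted p = 0.0608). For the counts that follow, 16.7% of all genes passed in DU145-DR and 18.5% in ARCaPM-DR. CYC1 was the 1 of 6 listed subunits and carriers that passed in DU145-DR. In each of the other lines 0 of 6 passed with limma. At an unadjusted p under 0.05 there were 0 (22Rv1-DR) and 2 (ARCaPM-DR), against 1379 of 13757 and 4358 of 13079 genes tested. Of 22 assembly factors of complex IV, 1 rose and 3 fell in DU145-DR, and 1 rose and 1 fell in ARCaPM-DR. There COX15, which makes heme A, rose from 944 ± 78.7 to 1336 ± 29.5 (adjusted p = 0.00485) and COX11, which delivers copper, fell from 831 ± 51.7 to 548 ± 115 (adjusted p = 0.0106). Of 13 assembly factors of complex I that were tested, NDUFAF3 fell in ARCaPM-DR (log2 fold change -0.48, adjusted p = 0.0397) and 0 passed in DU145-DR. With the replicate block, where 38.8% of all genes passed in DU145-DR, the counts in that line were 2 up and 2 down of 6 subunits and carriers, 2 up and 1 down of 13 complex I factors, 1 up and 3 down of 9 complex II and III factors, and 3 up and 3 down of 22 complex IV factors.

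Regulators of mitochondrial biogenesis gave 2 up and 0 down of 19 in DU145-DR and 1 up and 2 down of 18 in ARCaPM-DR. With the block it was 5 up and 2 down in DU145-DR, and 4 up and 2 down of 18 citrate cycle enzymes. GABPA, the ETS factor named above, rose in ARCaPM-DR from 506 ± 25.3 to 998 ± 132 (log2 fold change 0.97, SE 0.13, adjusted p = 0.00103). PPRC1, a coactivator related to PGC-1, fell there from 2388 ± 429 to 1497 ± 300 (log2 fold change -0.68, SE 0.18, adjusted p = 0.0275), as did POLG, the mitochondrial DNA polymerase (-0.56, SE 0.15, adjusted p = 0.0259). TFAM, which packages mitochondrial DNA, rose in DU145-DR from 597 ± 100 to 830 ± 122 (adjusted p = 0.0312), and TFB1M rose with it (adjusted p = 0.0371). NRF1 had a log2 fold change of -0.015 in DU145-DR, of -0.076 in the 22Rv1-DR libraries and of -0.0098 in those of ARCaPM-DR. Of 18 citrate cycle enzymes, 1 rose and 2 fell in ARCaPM-DR. DLD, the dihydrolipoamide dehydrogenase shared by the pyruvate and oxoglutarate dehydrogenase complexes, went from 2756 ± 111 to 1075 ± 251 (log2 fold change -1.39, SE 0.10, adjusted p = 5.42e-05), PC, pyruvate carboxylase, from 187 ± 15.0 to 118 ± 24.1, and IDH3A, a subunit of isocitrate dehydrogenase, from 477 ± 20.5 to 745 ± 105. In 22Rv1-DR 0 genes of these lists passed with limma, and 0 without Control replicate 3. At an unadjusted p under 0.05 there were 1 complex I assembly factor, 2 biogenesis regulators and 1 citrate cycle enzyme with all libraries. Of all 13757 genes tested, 1379 were under that value. With the block and without Control replicate 3, where 10.7% of all genes passed, 5 genes of the lists did. They were 2 of 20 biogenesis regulators, and 1 each of 18 citrate cycle enzymes, 22 complex IV factors and 9 complex II and III factors. In the other lists, of 6 subunits and carriers, 13 complex I factors and 3 complex V factors, 0 passed. GABPA (log2 fold change 0.32, adjusted p = 0.0169) and TFB2M, a mitochondrial transcription factor (0.37, adjusted p = 0.0175), rose, and DLD (-0.71, adjusted p = 1.57e-04), the complex IV factor FAM36A (-0.86, adjusted p = 2.62e-04) and the complex II factor ACN9 (-0.36, adjusted p = 0.0217) fell. In DU145-DR, TTC19, a complex III factor, rose from 386 ± 37.8 to 575 ± 78.0 (adjusted p = 0.00794).

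The windows around the start sites, 250 bases before to 50 after, were found for 67 of the 80 genes in RefSeq (GRCh38.p14) and set beside all 27305 windows. The NRF1 letters GCATGCGC stood in 19.4% of the 67 and 3.3% of all windows, the ETS letters CCGGAAG in 29.9% and 10.7%, and the YY1 letters AAGATGGC in 16.4% and 3.0%, on either strand. The 4 GATA words given above stood in 17.9% of the 67 and in 25.5% of all windows. Of the genes called in ARCaPM-DR with a window, UQCR10 and NDUFB3 held GATA letters. NDUFA8, called in DU145-DR, held the NRF1 letters, and NDUFS1 and ATP5L held the ETS letters.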

How the data were processed

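The 27 libraries are RNA-seq of total RNA. The deposited table holds a normalised signal per gene, with hg19 as the genome and TopHat2 2.0.9 and Cufflinks 1.3.0 named per the submitters' processing notes; the sources used here do not name the counter, the scaling or the use of strand. In each library nearly all values were whole multiples of 1 step (99.954% of 433407 values above 0, tolerance 0.005), so the deposited signal is read counts divided by a factor per library, and reads were recovered from it. The 199 values that were not whole fell in 58 genes, none of them a respiratory chain gene (0).

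Values were tested as log2(value + 1) with limma 3.58.1 (R 4.3.3) and a mean-variance trend, on genes with at least 10 in at least 3 libraries, each line alone (9 libraries), with Benjamini-Hochberg adjustment over all genes and a threshold of 0.05. Fold changes on this scale understate low genes. Differences between lines used an F test over all 27 libraries, and control levels the 6 control libraries of each pair. Scripts were tested on simulated data. Alternatives were a pseudocount of 0.1, no filter, a filter of 50, quantile and median-of-ratios scaling, no trend, edgeR 4.0.16 and DESeq2 1.42.0 on recovered reads, a replicate block and leaving out each library.

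Same-numbered libraries deviated together over the genes tested in DU145-DR (lowest correlation 0.275) and 22Rv1-DR (0.211), above the threshold of 0.1, and not in ARCaPM-DR (0.056), where 3 of 5 filters on low genes gave over 0.1. Blocked values of DU145-DR, of 22Rv1-DR and of the fit over all lines stand in the report, and those of ARCaPM-DR alone in the closing section. Blocked results had been seen when the filters were compared.

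Named genes were central subunits, isoform groups, genes past the threshold with the smallest adjusted p by line and complex, those whose knockdown effect differed between lines at the lowest p, the largest folds between control groups, and listed genes past the threshold. Members and lists were chosen with earlier results of these data known. The settings without 22Rv1-DR Control replicate 3 with the block, the attention to that library, the printed windows and the transcript length (the shortest protein-coding transcript with the longest coding sequence, GENCODE, 1 of 3 choices tried) were chosen after seeing the data. Results for some genes are not reported here.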

Additional observations from a re-analysis of the deposited data

Results flagged for a closer look

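The knockdown effect on UQCRC2 differed between the lines (limma F test over 27 libraries, adjusted p = 1.25e-06). The log2 fold change was -1.81 in ARCaPM-DR, -0.43 in 22Rv1-DR and 0.02 in DU145-DR. All 6 knockdown libraries lay below all 3 controls in ARCaPM-DR and in 22Rv1-DR, and the groups overlapped in DU145-DR. Of all genes, 10% lay below all controls in this way in ARCaPM-DR and 4.04% in 22Rv1-DR. Tested within 22Rv1-DR, the fall of UQCRC2 did not pass the threshold.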

How the results depend on the processing

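Of 233 alternatives to the 13 main results, 191 stayed within 1.5 times a count or within the spread of a median, 41 moved past that, and 1 median moved past the spread with a change of sign. The 191 include counts of 0 that stayed at 0, between the hairpins and in 22Rv1-DR, where at most 2.17% of all genes passed. Within the spread, signs of medians also changed. Of 19 alternatives a line, the sign was opposite in 1 for 22Rv1-DR, 5 for DU145-DR and 5 for ARCaPM-DR. The 1 median that moved past the spread is among those of ARCaPM-DR. The DU145-DR and ARCaPM-DR medians were near 0. The 22Rv1-DR median was not, and turned from 0.228 to -0.146 without Control replicate 3. It counts as within the spread because the spread of that line was computed with this library included. In DU145-DR the count of genes called, 1, was 0 without a filter, without a trend and in 1 fit of all 27 libraries. It was 2 with a filter of 50 and with DESeq2, and 0 to 5 with 1 library left out. With median-of-ratios scaling the count was 1 too, but that gene rose, where the gene of the main fit fell. In 22Rv1-DR it was 0 with each library left out; the median of 0.228 ran from -0.146 to 0.477. In ARCaPM-DR the count of 8 was 5 in 1 fit of all 27 libraries and 2 to 10 with 1 library left out, and the median of 0.0055 ran from -0.096 (reversed, without Control replicate 2) to 0.104. The DU145-DR median ran from -0.115 to 0.048. The count that differed between lines, 1, was 3 with DESeq2 and 1 to 3 with 1 library left out. The counts between control groups ran from 21 to 55 (22Rv1-DR against DU145-DR), 34 to 47 (ARCaPM-DR against DU145-DR) and 11 to 47 (ARCaPM-DR against 22Rv1-DR). With the replicate block, 13 were called in DU145-DR, 0 in 22Rv1-DR, 20 in ARCaPM-DR (7 up and 13 down, where 45% of all genes passed), 3 between the hairpins in ARCaPM-DR and 6 between lines. Every library in DU145-DR and 22Rv1-DR, and 7 of 9 in ARCaPM-DR, correlated best with a library of its own number. The block with 22Rv1-DR Control replicate 3 left out gave 4 in 22Rv1-DR and 13 between lines, and with replicate 3 of all its groups left out it gave 3. Between control groups the block gave 37, 44 and 21; their same-numbered libraries did not deviate together (lowest correlations -0.065, -0.068 and -0.094). UQCRC2 in DU145-DR, 0.023 and not past the threshold, was -0.019 with quantile scaling and -0.000087 without shGATA2b replicate 1, and ran from there to 0.0475 with 1 library left out. Except where a library was left out, the cause was not tested. The shallowest library, ARCaPM-DR shGATA2a replicate 3, limits low genes such as COX6B2.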
